A study of Mus musculus with 36 samples.

Results

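The genes described here encode 10 enzymes and carriers that make fatty acids and triglycerides: Slc25a1, Acly, Acss2, Acaca, Acacb, Fasn, Me1, Gpam, Dgat1 and Dgat2. They were chosen by name, as the rows of the deposited expression table with these symbols, and are 10 of its 49315 genes. All 10 had at least 1 TPM (transcripts per 1000000) in at least 4 samples, a level that 16638 genes reached. Each was above 0 in all 36 libraries, from 2.131 TPM (Acaca, F/F vehicle replicate 1) to 1021 TPM (Fasn, W/W T0901317 replicate 2).

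The study measured liver polyA RNA of 36 mice, all male and 11 to 12 weeks old, 4 in each of 9 groups. The mice carried LXRalpha, an oxysterol receptor, with tryptophan at residue 441 on both alleles (W/W, the controls), with phenylalanine there on 1 allele (W/F) or on both (F/F). The change was made with CRISPR in the mice, and no source used here restricts it to hepatocytes. The mice of each genotype were kept on chow, as an independent cohort, or on a high fat, high cholesterol diet that promotes steatohepatitis (MASH diet) for 4 weeks with daily gavage, in the last 2 weeks, of vehicle or of 10 mg/kg of the synthetic LXR agonist T0901317. The series text pairs LXRalpha with the symbol Nr1h2, whereas the usual symbol is Nr1h3, and gene-level TPM do not show a codon change, so the genotype labels were not checked in that way. The mice of a group are separate samples per the labels. The limma p-values set each difference against the spread between mice of a group, estimated for each gene over all 9 groups together.

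As background, the liver makes fatty acids from citrate that leaves the mitochondria. Citrate is cleaved to acetyl-CoA, acetyl-CoA is carboxylated to malonyl-CoA, fatty acid synthase joins these units with NADPH as the reductant, and acyltransferases then place the acyl chains on glycerol to form triglyceride. LXR, as a heterodimer with RXR, raises this programme directly at some promoters and through the transcription factor SREBP-1c at others, and synthetic LXR agonists are known for raising liver triglyceride.

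The promoters of 3 members are shown, chosen on the TPM as deposited. These genes had the widest range between groups (Fasn), responses to T0901317 of opposite sign between genotypes (Gpam) and the narrowest range (Slc25a1). Each sequence is the 250 bases before a RefSeq start site in GRCm38.p6, on the gene's strand. The table holds 1 start for Fasn and Slc25a1 and 2 for Gpam, of which the upstream one is shown. Capitals mark CCAAT boxes on either strand (ATTGG is CCAAT read on the other strand) and the E-box CACGTG. The windows lie on the minus strand at chr11:120824548-120824797 for Fasn, chr19:55127239-55127488 for Gpam and chr16:17928220-17928469 for Slc25a1.
Fasn: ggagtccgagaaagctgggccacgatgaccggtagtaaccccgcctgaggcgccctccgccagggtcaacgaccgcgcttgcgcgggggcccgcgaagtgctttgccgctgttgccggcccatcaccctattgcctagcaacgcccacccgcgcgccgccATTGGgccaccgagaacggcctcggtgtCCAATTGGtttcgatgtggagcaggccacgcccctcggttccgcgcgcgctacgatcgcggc
Gpam: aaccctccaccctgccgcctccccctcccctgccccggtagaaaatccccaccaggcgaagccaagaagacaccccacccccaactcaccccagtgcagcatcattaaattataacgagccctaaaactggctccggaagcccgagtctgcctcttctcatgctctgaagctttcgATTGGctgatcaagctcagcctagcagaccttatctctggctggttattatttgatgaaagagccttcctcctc
Slc25a1: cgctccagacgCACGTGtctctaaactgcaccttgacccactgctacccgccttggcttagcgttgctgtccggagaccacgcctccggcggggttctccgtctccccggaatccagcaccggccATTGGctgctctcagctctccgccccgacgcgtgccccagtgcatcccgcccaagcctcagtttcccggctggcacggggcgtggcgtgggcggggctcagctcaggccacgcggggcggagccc

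A RefSeq promoter was matched for 8 of the 10 members, and none was matched for Dgat1 and Dgat2. Both strands of the 250 bases before the start were searched. Counted from -1 just before the start, CCAAT had its first base at -90, -62 and -59 in Fasn, the last pair overlapping, at -74 in the Gpam window shown and at -125 in Slc25a1, and 33.8% of 32851 promoters hold this motif. The window of the other Gpam start, chr19:55099478-55099727, has no match to it. The E-box stood at -239 in Slc25a1, and 6.02% of promoters hold it. The windows of Acaca and Acacb begin at chr11:84195188 and chr5:114165268, inside the genes as annotated. The sequence before the annotated gene starts of these carboxylases, chr11:84129672 and chr5:114146535, was not searched. TCACNCCAC, a core of the sterol regulatory element that SREBPs bind (1.05% of promoters), and AGGTCA repeated after any 4 bases, the element that LXR and RXR bind (0.0152%), were in none of the windows searched. These are matches of letters and say nothing of binding.

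The genes are spread over the genome. In GRCm38 with GENCODE M21, Acly lies at chr11:100476353-100528000, Acaca at chr11:84129672-84401651 and Fasn at chr11:120805846-120824547. Acacb lies at chr5:114146535-114250761, Me1 at chr9:86581371-86695953 and Acss2 at chr2:155517948-155585724. Slc25a1 lies at chr16:17925223-17928219, Gpam at chr19:55067268-55127238, Dgat1 at chr15:76502015-76511953 and Dgat2 at chr7:99153658-99182719. Of the exon length of Acss2, 9.12% is shared with other annotated genes (Acss2os, Ggt7 and Gss), and of Me1 0.78%, so reads there cannot be assigned by sequence alone, and no sharing was found for the other members.

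Library depth, worked out from the steps between small TPM values, was 18.07 to 35.82 M reads per library (median 23.91 M), and the fewest reads behind a member's value were 176, for Acacb in F/F chow replicate 2. TPM are shares of a library, and the median gene of the 16638 moved by up to 0.70 on the log2 scale between groups (F/F against W/W on vehicle). Rescaled TPM, each library divided by the median of its ratios to all libraries, are therefore given beside the deposited scale, and they centre all genes near 0. In bulk tissue, fewer cells of a type and less RNA per cell cannot be told apart. The summed TPM of 5 hepatocyte markers was 66800 to 105000 in W/W chow libraries and 32900 to 37400 in F/F vehicle libraries. The summed TPM of 6 macrophage markers was 95.7 to 124 in W/W vehicle, 664 to 1090 in W/F vehicle and 855 to 1100 in F/F vehicle libraries. Adipocyte markers summed to at most 0.395 TPM in any library, with Lep at 0 in all of them.

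Across the 9 groups, 6 of the 10 members had their highest mean in W/W mice given T0901317. Fasn, the synthase itself, spanned most, from 8.797 ± 1.52 TPM in F/F vehicle to 841 ± 177 TPM in W/W T0901317 mice (mean ± SD, n = 4), a ratio of 95.6. The ratio of the highest to the lowest group mean was 29.9 for Acacb, 20.2 for Acaca, 14.2 for Acss2, 10.3 for Me1, 8.38 for Acly and 7.36 for Gpam. It was 1.89 for Dgat1, 1.78 for Dgat2 and 1.74 for Slc25a1, so the last step of triglyceride synthesis and the citrate carrier moved least. The order of these 3 depends on the scale. On rescaled TPM the group means ran from 17.06 to 26.25 for Dgat1, 191.7 to 568.8 for Dgat2 and 119.6 to 336.4 for Slc25a1. In rising order of mean, Fasn ran from F/F vehicle through W/F vehicle, F/F T0901317, F/F chow, W/F T0901317, W/F chow, W/W chow and W/W vehicle to W/W T0901317. Of these neighbours, F/F vehicle and W/F vehicle, F/F chow and W/F T0901317, and W/W vehicle and W/W T0901317 did not overlap, and the other neighbours did. The make-up of the pathway's RNA moved with them. Dgat2 held 39.8% of the summed TPM of the 10 members in W/W vehicle mice, and 14.7% in W/W T0901317 mice. Fasn held 13.9% and 30.7% in the same groups, but 1.40% in F/F vehicle mice.

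**Figure D1:**
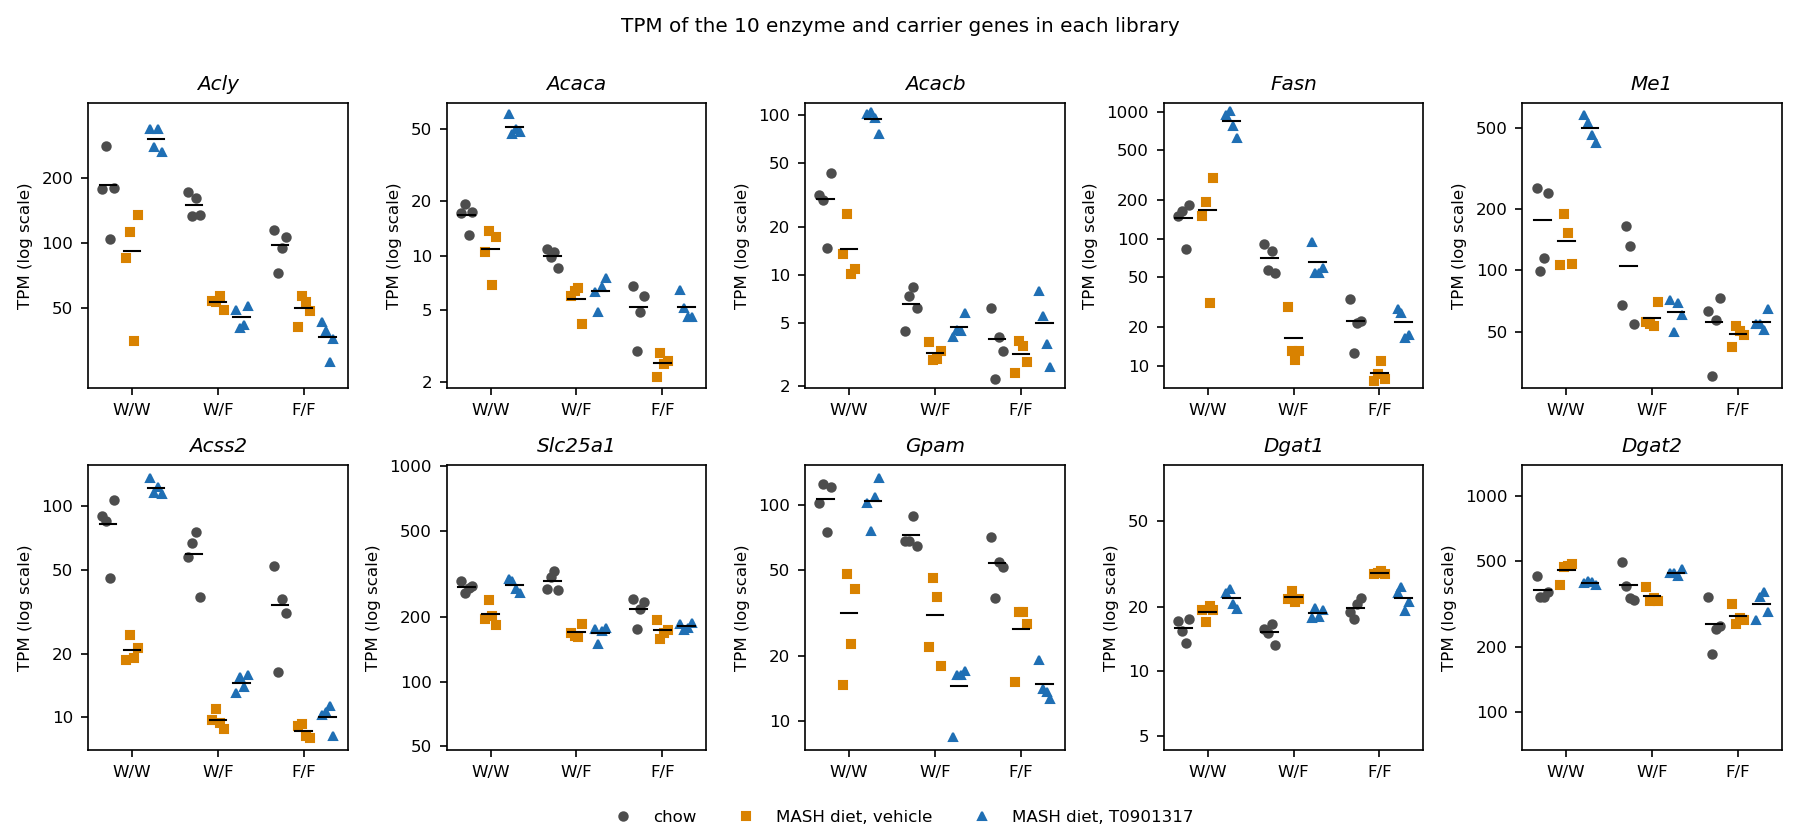
TPM of each of the 10 genes (log axis, its range differing between panels) by genotype, with 1 point per library, grey circles for chow, orange squares for MASH diet with vehicle and blue triangles for MASH diet with T0901317, and a line at each mean of 4 mice. Fasn runs from 7.635 to 1021 TPM, whereas Slc25a1 stays between 149.0 and 326.5 TPM.

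T0901317 against vehicle asks what the agonist did within a genotype. In W/W mice it raised 8 of the 10 members, from citrate export to the first acylation of glycerol, and none passed the test as lower. Over all genes tested, 10.8% passed the test, and 7.87% were higher. The median log2 change was 1.87 over the members and 0.06 over all genes. In all 8 the treated and vehicle mice did not overlap, which held for 16.5% of all genes.

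The steps that supply acetyl-CoA rose in W/W mice. Slc25a1, the mitochondrial citrate carrier, read 195.3, 240.2, 201.5 and 183.4 TPM on vehicle and 300.6, 293.0, 268.8 and 257.9 TPM on T0901317. Every treated mouse lay above every vehicle mouse, and the mean difference was 0.45 on the log2 scale (limma, SE 0.092, adjusted p = 0.000981). Acly, which cleaves citrate to acetyl-CoA and oxaloacetate, was at 85.91, 113.4, 35.05 and 136.0 TPM on vehicle and 339.8, 279.6, 339.1 and 266.7 TPM on T0901317, a 3.65-fold rise (adjusted p = 6.24e-06). Acss2, which makes acetyl-CoA from acetate, rose 5.67-fold from 18.67, 24.54, 18.99 and 21.2 TPM to 136.4, 115.3, 123.9 and 114.2 TPM (adjusted p = 3.43e-09). Of these genes the carrier had the smallest change, with treated mice still clear of vehicle mice.

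Both acetyl-CoA carboxylases rose as well. Acaca, the cytosolic form that feeds fatty acid synthesis, read 10.51, 13.62, 6.925 and 12.73 TPM on vehicle and 60.6, 46.96, 50.14 and 48.06 TPM on T0901317 (log2 change 2.17, SE 0.179, adjusted p = 3.75e-10). Acacb, the mitochondrial form whose malonyl-CoA restrains fatty acid oxidation, read 13.5, 23.94, 10.1 and 10.85 TPM and then 101.8, 104.4, 96.56 and 76.69 TPM (2.69, SE 0.276, adjusted p = 3.22e-08). In both genes the lowest treated mouse was above 3 times the highest vehicle mouse. Fasn read 150.4, 192.7, 31.2 and 302.1 TPM on vehicle and 944.2, 1021, 774.9 and 624.5 TPM on T0901317 (log2 change 2.67, SE 0.414, adjusted p = 2.89e-05). Its vehicle mice were far apart, replicate 3 being lowest and replicate 4 highest, and the change was 2.00 without the former and 3.08 without the latter. Me1, the cytosolic malic enzyme that yields NADPH, rose 3.65-fold, from 106.8 to 189.1 TPM on vehicle to 423.5 to 579.9 TPM on T0901317 (adjusted p = 3.03e-05).

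Glycerolipid assembly divided by step in W/W mice. Gpam, the mitochondrial acyltransferase that starts it, read 14.62, 47.97, 22.63 and 40.78 TPM on vehicle and 102.3, 75.55, 109.0 and 133.5 TPM on T0901317 (3.53-fold, adjusted p = 9.62e-05). Dgat1, the enzyme of the final acylation that favours acyl chains from outside the cell, and Dgat2, the isoenzyme tied to newly made fatty acids, did not pass the test. Their treated and vehicle mice overlapped, with log2 changes of 0.20 (adjusted p = 0.163) and -0.19 (adjusted p = 0.424). Few markers passed the test in this comparison. Of 5 hepatocyte markers 1 was lower, 2 of 5 stellate cell markers were higher, and none of 6 macrophage or 4 cholangiocyte markers passed. The summed TPM of the stellate cell markers was 15.1 to 34.6 on vehicle and 38.0 to 92.4 on T0901317, without overlap. The part of the markers in the members' rise was not tested.

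In W/F mice T0901317 raised 3 members (Fasn, Acss2 and Dgat2) and lowered 2 (Gpam and Dgat1), where 65.9% of all genes passed the test, 6.59% as higher and 59.3% as lower. The median of all genes fell by 0.49 on the log2 scale here, and on rescaled TPM 8 members rose and none fell, where 23.6% of all genes rose. Fasn read 28.82, 13.13, 11.11 and 13.02 TPM on vehicle and 94.75, 53.97, 53.53 and 59.25 TPM on T0901317, with replicate 1 highest in both groups and no overlap (log2 change 1.98, adjusted p = 0.000119, 2.56 on rescaled TPM). Gpam went the other way. Its vehicle mice were at 21.9, 46.0, 37.38 and 17.87 TPM and its treated mice at 8.38, 16.25, 16.25 and 16.92 TPM, all below them (-0.99, adjusted p = 0.00557). On rescaled TPM the difference of Gpam was -0.42 and did not pass the test (adjusted p = 0.205).

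The remaining W/F changes were smaller. Acss2 rose by 0.54 (adjusted p = 0.0389, 1.10 on rescaled TPM), and its call was lost without any of 6 of the 8 libraries, vehicle replicates 1, 3 and 4 and T0901317 replicates 2, 3 and 4, and without the filter on low values (adjusted p = 0.0733). Dgat2 rose from 325.5 to 380.5 TPM on vehicle to 425.3 to 458.0 TPM on T0901317 (0.36, adjusted p = 0.0152, 0.97 on rescaled TPM). Dgat1 was lower on the deposited scale and higher on the rescaled scale (-0.23, adjusted p = 0.0205, and 0.35), and the first call was lost without vehicle replicate 2 or T0901317 replicate 1 or 3. Acaca and Acacb, which rose in W/W mice, had values of 0.12 (adjusted p = 0.588) and 0.42 (adjusted p = 0.188) here, and 0.64 and 0.89 on rescaled TPM, where both passed the test. Acacb also passed in a fit of these 8 libraries alone (adjusted p = 0.0222). Marker lists moved as well in W/F mice. On the deposited scale, 3 of 5 hepatocyte markers were higher, and 5 of 6 macrophage (the other 1 was higher), 5 of 5 stellate cell and 4 of 4 cholangiocyte markers were lower, and their part in these results was not tested.

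In F/F mice T0901317 raised Fasn and Acaca and lowered Gpam and Dgat1, where 35.1% of all genes passed the test, 3.95% as higher and 31.2% as lower. Rescaled, 4 members rose and none fell, where 8.32% of all genes rose. Acaca read 2.131, 2.899, 2.538 and 2.606 TPM on vehicle and 6.423, 5.143, 4.563 and 4.585 TPM on T0901317, without overlap (log2 change 0.80, SE 0.179, adjusted p = 0.00145). Fasn read 7.635, 8.644, 10.98 and 7.929 TPM and then 27.82, 26.0, 16.58 and 17.53 TPM, also without overlap. The change of Fasn, 1.21 (SE 0.414, adjusted p = 0.0245), lost its call without vehicle replicate 1 or 4 or T0901317 replicate 1 or 2 (adjusted p 0.0504 to 0.0567). Every treated F/F mouse was still below the lowest W/W vehicle mouse, which read 31.2 TPM of Fasn. For Gpam the value was -0.77 (adjusted p = 0.0494), with overlapping groups, and the call was lost without any of 6 of the 8 libraries (vehicle replicates 2, 3 and 4 and T0901317 replicates 2, 3 and 4), with a pseudocount of 0.1 (adjusted p = 0.0560), without the filter (0.0852), and on rescaled TPM (-0.51, adjusted p = 0.21). Dgat1 fell by 0.38 (adjusted p = 0.00192), and on rescaled TPM its value was -0.12 (adjusted p = 0.417). All 5 hepatocyte markers rose, 4 of 6 macrophage markers fell and 1 rose, and 2 of 5 stellate cell and 4 of 4 cholangiocyte markers fell. On rescaled TPM the falls were 1 of 6, 2 of 5 and 2 of 4, and their part in it was not tested.

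**Figure D2:**
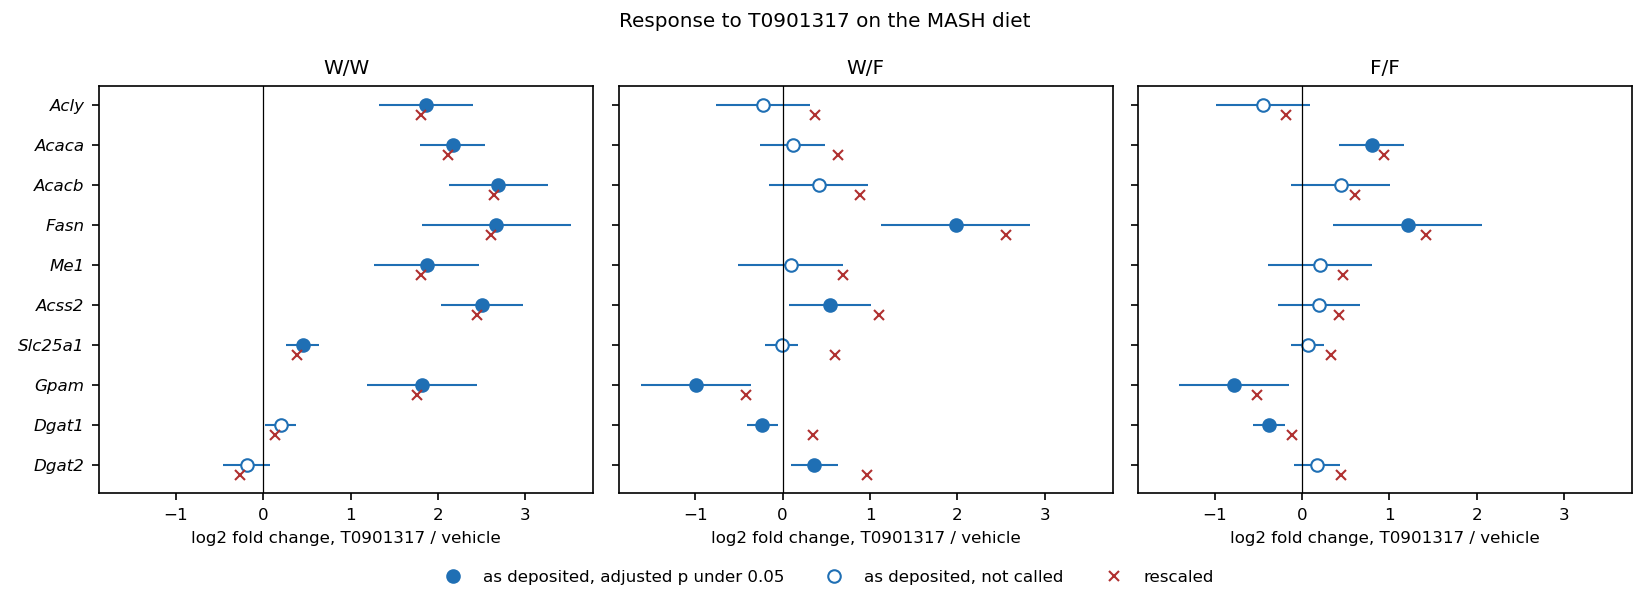
Log2 fold change of T0901317 over vehicle (x axis) for the 10 genes in each genotype, with bars of 95% confidence intervals, filled points for an adjusted p under 0.05, and red crosses for rescaled TPM. Filled points right of 0 number 8 for W/W mice, whereas W/F mice have 3, with 2 left of 0, and F/F mice have 2, with 2 left of 0. The median log2 change of all genes on this deposited scale was -0.49 for W/F mice and -0.24 for F/F mice. With rescaled TPM, W/W and W/F mice each had 8 members higher by the test, F/F mice had 4, and no member was lower.

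The responses themselves differed between genotypes, in tests of the difference that share the W/W mice. In W/F against W/W mice, 8 members responded less and 1, Dgat2, responded more, where 58.5% of all genes passed the test, 53.2% as lower and 5.27% as higher. Here less means a lower log2 change, also where a member fell, as Gpam and Dgat1 did in W/F mice. The median was -1.87 over the members and -0.545 over all genes. On rescaled TPM 6 responded less and 1 more, with medians of -1.23 and -0.041. Gpam differed most, by -2.81 (adjusted p = 3.4e-06, -2.17 on rescaled TPM), followed by Acacb (-2.27), Acly (-2.09), Acaca (-2.05), Acss2 (-1.96) and Me1 (-1.78). Slc25a1 (-0.46) and Dgat1 (-0.43) differed on the deposited scale, but on rescaled TPM both had a value of 0.21 that did not pass the test. Dgat2 differed by 0.56 (adjusted p = 0.0108, 1.23 on rescaled TPM). In F/F against W/W mice 8 members responded less, where 30.4% of all genes passed the test and 27.2% responded less. On rescaled TPM 6 responded less and Dgat2 more, where 10.0% of all genes responded less and 7.39% more. Gpam (-2.59, adjusted p = 7.6e-05), Acly (-2.31), Acss2 (-2.31) and Acacb (-2.25) led them. On rescaled TPM Slc25a1 (-0.05) and Dgat1 (-0.25) no longer passed. Slc25a1 was at -0.39 on the deposited scale, and lost its call without any of 5 single libraries (W/W vehicle 1 and 4, W/W T0901317 1 and 2, F/F vehicle 1).

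The response of Fasn did not pass this test in W/F mice, and in F/F mice it lay near the threshold. Its response in W/F mice differed from that in W/W mice by -0.69, with a 95% confidence interval of -1.89 to 0.51 (adjusted p = 0.321) and -0.04 on rescaled TPM. The value rested on 2 W/W vehicle libraries, at -0.02 without replicate 3 and -1.10 without replicate 4. In F/F against W/W mice it was -1.46 (interval -2.66 to -0.26, adjusted p = 0.0568), which passed the test without W/W vehicle replicate 2 or 4 or F/F T0901317 replicate 1, at a filter of 5 TPM (adjusted p = 0.0481) and with a replicate block (0.0408), and was -0.79 without W/W vehicle replicate 3. Between F/F and W/F mice none of the 10 responses differed by the test, where 19.2% of all genes did. Acaca was the 1 member with an unadjusted p under 0.05 in limma (0.68, adjusted p = 0.0558). It passed with a pseudocount of 0.1 (adjusted p = 0.0357), at a filter of 5 TPM (0.045) and with only the groups compared (0.0408), but not on rescaled TPM (0.431).

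Related lists moved with the members in W/W mice on T0901317. Of 13 sterol synthesis genes 13 rose (median log2 change 1.58), of 9 desaturation and elongation genes 7 (1.35), of 10 acyl-CoA and malonyl-CoA handling genes 7 (0.71), of 10 other glycerolipid genes 9 (0.68), of 12 carbon and NADPH supply genes 6 (0.43) and of 13 regulators 4 (0.14), and none of these lists had a lower gene. G6pdx, which opens the pentose phosphate route to NADPH, changed by 3.47 in W/W mice, by -2.06 in W/F mice and by -0.96 in F/F mice, and Pgd, a later enzyme of that route, by 1.49, -1.99 and -0.88. All 6 of these values passed the test, and on rescaled TPM all but that of G6pdx in F/F mice did (-0.69, adjusted p = 0.057). Mogat1, which acylates monoacylglycerol, rose by 2.22 in W/W mice, and its values of 0.55 (W/F) and 0.30 (F/F) did not pass, the former passing on rescaled TPM (0.79).

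In the mutants the same lists held higher and lower genes or few calls, where 59.3% (W/F) and 31.2% (F/F) of all genes fell. None of the 13 sterol synthesis genes rose and 3 fell in both W/F and F/F mice, whereas on rescaled TPM 3 rose and 1 fell in W/F mice, and 2 and 1 in F/F mice. Desaturation and elongation had 3 higher and 2 lower genes in W/F mice (7 and 0 on rescaled TPM) and 2 and 0 in F/F mice (5 and 0). Higher and lower genes numbered, in W/F and then F/F mice, 3 and 5, then 1 and 3, for carbon and NADPH supply. They numbered 4 and 2, then 5 and 2, for acyl-CoA and malonyl-CoA handling, and 1 and 4, then 1 and 2, for other glycerolipid steps. Of the regulators 4 were higher and 6 lower in W/F mice, and 3 and 3 in F/F mice. On rescaled TPM these lists had 8 and 2, 8 and 2, 4 and 1, and 7 and 1 in W/F mice, and 4 and 1, 6 and 1, 2 and 0, and 3 and 0 in F/F mice. Elovl6, which elongates palmitate, rose in all genotypes, by 2.43 in W/W mice, 1.75 in W/F mice and 1.25 in F/F mice. Gpat4, a microsomal isoenzyme of the step that Gpam starts, also rose in all of them, by 0.35, 1.01 and 0.69. Mid1ip1, which promotes polymerisation of acetyl-CoA carboxylase, rose by 0.88, 2.02 and 0.93, the first not passing on rescaled TPM (adjusted p = 0.0586). Thrsp, its relative, rose by 4.95 in W/F and 3.68 in F/F mice, with 1.91 in W/W mice not passing (adjusted p = 0.0627).

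W/F against W/W and F/F against W/W ask what the residue changed at a given treatment, and both use the same W/W mice. On chow, Acacb alone was lower in W/F mice, where 0.487% of all genes passed the test, 0.288% as lower. Acacb read 31.75, 29.55, 14.71 and 43.65 TPM in W/W and 4.429, 7.392, 8.421 and 6.159 TPM in W/F mice, so that the highest W/F mouse was below the lowest W/W mouse (log2 difference -1.96, SE 0.276, adjusted p = 9.19e-05). In a fit of these 8 libraries alone its adjusted p was 0.207. Acaca did not overlap either, at 13.04 to 19.25 TPM against 8.547 to 10.94 TPM, but its difference of -0.69 did not pass the test (adjusted p = 0.0927) except on rescaled TPM (-0.73, adjusted p = 0.0306). No marker tested, of 7 cell types, passed in this comparison. Of 13 sterol synthesis genes 7 were higher, with a list median of 0.86, while the members' median was -0.49.

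F/F mice on chow had 9 members lower than W/W mice and 1, Dgat1, higher, where 46.7% of all genes passed the test, 43.0% as higher and 3.65% as lower. Fasn read 150.3, 166.2, 82.56 and 185.3 TPM in W/W and 33.25, 12.67, 21.73 and 22.32 TPM in F/F mice, without overlap (-2.66, adjusted p = 8.52e-06). Acacb was at 6.231, 2.235, 4.094 and 3.333 TPM, also all below W/W mice (-2.60, adjusted p = 1.62e-08). Me1 (-1.59), Acaca (-1.55), Acss2 (-1.29), Gpam (-0.98), Acly (-0.86), Dgat2 (-0.55) and Slc25a1 (-0.35) followed. The call of Acly was lost without W/W chow replicate 2 (adjusted p = 0.0544). Dgat1 was 0.30 higher, but -0.07 on rescaled TPM (adjusted p = 0.606), and did not pass with only these groups fitted (adjusted p = 0.0543). Beside these, 5 of 6 macrophage, 4 of 5 stellate cell and 4 of 4 cholangiocyte markers were higher in F/F mice on chow and 1 of 5 hepatocyte and 1 of 6 macrophage markers lower, and their part in the differences was not tested.

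On the MASH diet with vehicle, 8 members were lower and Dgat1 higher in both mutants. Of all genes, 68.5% passed the test in W/F mice (61.6% higher, 6.83% lower) and 76.5% in F/F mice (69.3% higher, 7.13% lower). On rescaled TPM all 10 were lower in both, where 25.5% and 28.1% of all genes were lower. Fasn differed most, by -2.99 in W/F and -3.74 in F/F mice (adjusted p = 2.56e-07 and 2.1e-09). Acacb differed by -1.80 and -1.84, Acaca by -0.79 and -1.72, Me1 by -1.20 and -1.47, and Acss2 by -1.03 and -1.18. Without overlap, Me1 was at 106.8 to 189.1 TPM in W/W mice, 53.03 to 70.23 TPM in W/F mice and 41.93 to 53.4 TPM in F/F mice, so the mutants overlapped only with each other. Gpam gave 0.01 in W/F and -0.14 in F/F mice, neither passing the test, and -0.63 and -0.97 on rescaled TPM, both passing. Acly and Slc25a1 differed by -0.63 and -0.27 in W/F and by -0.73 and -0.24 in F/F mice. The calls of Acly depended on single W/W vehicle libraries, lost in both mutants without replicate 2 or 4, and in W/F mice also without W/W vehicle replicate 1 or W/F vehicle replicate 1, 2 or 4. That of Slc25a1 was lost in both mutants without W/W vehicle replicate 2, and in F/F mice also without F/F vehicle replicate 2. With only the compared groups fitted, Acly passed in neither mutant (adjusted p = 0.162 and 0.105), nor did Slc25a1 in F/F mice (0.0546), and without the filter Acly did not pass in W/F mice (0.0661).

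Dgat1 was the member with the reverse sign on vehicle, and its sign turned with the scale. It read 19.19, 16.97, 20.12 and 19.36 TPM in W/W mice, 21.62, 23.72, 21.05 and 21.75 TPM in W/F and 28.34, 28.61, 29.39 and 28.35 TPM in F/F mice. The 3 genotypes did not overlap, with differences from W/W mice of 0.21 (adjusted p = 0.0328) and 0.58 (adjusted p = 6.55e-07). The W/F call was lost without W/W or W/F vehicle replicate 2. On rescaled TPM the same differences were -0.42 and -0.25. The marker lists were far apart on vehicle. Of 5 hepatocyte markers 4 were lower in W/F and 5 in F/F mice, and 5 of 6 macrophage, 5 of 5 stellate cell and 4 of 4 cholangiocyte markers were higher in both, with 1 macrophage marker lower, and their part in the members' differences was not tested.

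On T0901317 the members' median differences from W/W mice were larger than on chow or vehicle in both mutants. In W/F mice 8 members were lower than in W/W mice, where 9.88% of all genes passed the test, 6.23% as lower, and the median was -2.82 over the members and 0.00 over all genes. Acacb (4.069, 4.502, 4.428 and 5.775 TPM in W/F mice) differed from W/W mice by -4.07 and Fasn by -3.68 (adjusted p = 2.98e-12 and 1.11e-07). Acss2 (-2.99), Me1 (-2.98), Acaca (-2.84), Gpam (-2.80), Acly (-2.72) and Slc25a1 (-0.73) also differed, without overlap, whereas Dgat1 (-0.22, adjusted p = 0.12) and Dgat2 (0.15, adjusted p = 0.552) did not pass the test. Dgat2 did not overlap either, at 385.6 to 402.8 TPM in W/W and 425.3 to 458.0 TPM in W/F mice. All 8 lower members passed on rescaled TPM too, where 8.28% of all genes were lower, and the count was 8 whichever of the libraries was left out. In this comparison 1 of 5 hepatocyte markers was higher and no macrophage, stellate cell or cholangiocyte marker passed the test.

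F/F mice on T0901317 had 9 members lower than W/W mice, where 63.2% of all genes passed the test, 6.96% as lower. Fasn differed by -5.20 (SE 0.414, adjusted p = 2.77e-11), Acacb by -4.08, Acss2 by -3.49, Me1 by -3.13, Acaca by -3.09, Acly by -3.04 and Gpam by -2.74. Slc25a1 differed by -0.63 and Dgat2 by -0.34, the latter losing its call without F/F T0901317 replicate 1 or 4. Dgat1 gave 0.00 and, on rescaled TPM, -0.50, with all 10 then lower, where 22.7% of all genes were. Here 4 of 5 hepatocyte markers were lower and 1 was higher, and 5 of 6 macrophage (1 was lower), 4 of 5 stellate cell and 4 of 4 cholangiocyte markers were higher, and their part was not tested.

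F/F and W/F mice were also compared directly. F/F mice had 6 members lower than W/F mice on chow, led by Fasn (-1.64, adjusted p = 0.00218), and Dgat1 higher (0.36, and 0.02 on rescaled TPM), where 41.4% of all genes passed the test, 37.9% as higher and 3.43% as lower. On rescaled TPM 9 were lower and none higher, where 14.7% of all genes were lower. Me1 was among the 6 (-0.82, adjusted p = 0.0238) and lost its call without W/F chow replicate 2 or 3 or F/F chow replicate 2. With only these 8 libraries fitted, Me1 (adjusted p = 0.152) and Acss2 (adjusted p = 0.0956) lost their calls and Acly gained one (adjusted p = 0.0171). On vehicle Acaca was lower (-0.93, adjusted p = 0.000472) and Dgat1 higher (0.37), where 21.3% passed, 19.0% as higher and 2.30% as lower. Fasn on vehicle did not overlap, at 11.11 to 28.82 TPM in W/F and 7.635 to 10.98 TPM in F/F mice, but did not pass the test (-0.75, adjusted p = 0.201). On T0901317 Fasn (-1.52, adjusted p = 0.0022) and Dgat2 (-0.50, adjusted p = 0.00161) were lower and Dgat1 higher (0.22, and -0.29 on rescaled TPM), where 62.6% passed, 58.5% as higher and 4.08% as lower. The call of Dgat1 was lost without replicate 1 or 3 of W/F or 1 or 2 of F/F mice, and with only these groups fitted (adjusted p = 0.0743). On rescaled TPM 7 were lower there and none higher, and on vehicle 2 and none, where 18.9% and 4.85% of all genes were lower. On chow 5 of 6 macrophage, 4 of 5 stellate cell and 4 of 4 cholangiocyte markers were higher in F/F mice, and 1 macrophage marker was lower. On vehicle 4 of 5 hepatocyte markers were lower, 4 of 4 cholangiocyte markers were higher, 2 of 5 stellate cell markers were higher and 1 was lower, and 1 of 6 macrophage markers was lower. On T0901317 5 of 6 macrophage, 5 of 5 stellate cell and 4 of 4 cholangiocyte markers were higher, and 2 of 5 hepatocyte markers and 1 macrophage marker were lower. The part of these markers in the members' differences was not tested.

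**Figure D3:**
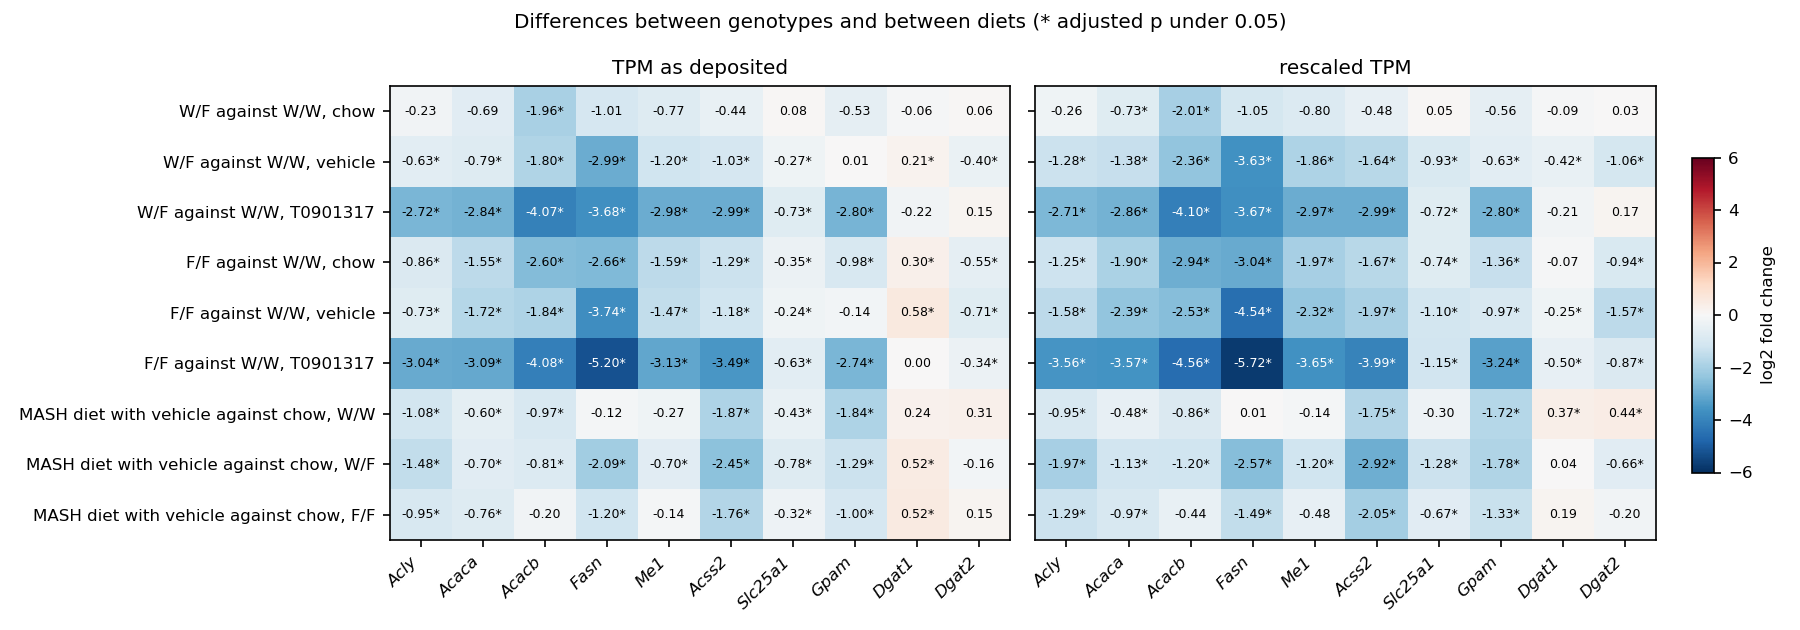
Log2 differences of the 10 genes (columns) in 9 comparisons (rows), on deposited TPM and on rescaled TPM, with an asterisk for an adjusted p under 0.05 and colour for the sign and size. Fasn and Acacb reach -5.20 and -4.08 for F/F against W/W mice on T0901317, and Dgat1 changes sign between the scales in several rows.

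Vehicle-treated mice on the MASH diet were set against chow mice to ask what the diet did. The chow mice were an independent cohort, so diet and cohort cannot be told apart. In W/W mice 6 members fell, where 12.9% of all genes passed the test, 10.3% as lower. Acss2 fell from 89.99, 84.95, 45.76 and 107.1 TPM on chow to 18.67, 24.54, 18.99 and 21.2 TPM, without overlap (-1.87, adjusted p = 1.98e-06). Gpam fell from 102.7, 125.8, 74.87 and 121.8 TPM to 14.62, 47.97, 22.63 and 40.78 TPM, without overlap (-1.84, adjusted p = 0.000182). Acss2 and Gpam had the largest falls of the 10 members in these mice. Acly fell by 1.08 (by 0.68 without vehicle replicate 3), Acacb by 0.97, Acaca by 0.60 and Slc25a1 by 0.43 on the log2 scale. Acaca and Acacb lost their calls without any of several single libraries, Acaca without chow replicate 2 or 4 or vehicle replicate 1 or 3 and Acacb without these or vehicle replicate 4, and Acaca also without the filter (adjusted p = 0.0511). In a fit of these 8 libraries alone 3 members passed, and Acly (adjusted p = 0.21), Acacb (0.168) and Acaca (0.145) did not. Slc25a1 did not pass on rescaled TPM (-0.30, adjusted p = 0.0623), where 5 members fell and Dgat1 and Dgat2 rose (0.37 and 0.44), against 8.44% and 6.98% of all genes.

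For Fasn the diet difference itself differed between genotypes. In W/W mice it gave -0.12 (adjusted p = 0.921), at 82.56 to 185.3 TPM on chow and 31.2 to 302.1 TPM on the diet, and 0.56 without vehicle replicate 3. In W/F mice it fell by 2.09 (adjusted p = 6.64e-05), from 91.39, 56.42, 80.06 and 54.09 TPM to 28.82, 13.13, 11.11 and 13.02 TPM. The difference between these responses was -1.98 (adjusted p = 0.00536), where 54.6% of all genes passed the test, 5.13% as lower. Leaving out a library gave -2.65 to -1.57. Dgat2 (-0.47, adjusted p = 0.0332) and Slc25a1 (-0.35, adjusted p = 0.0232) also fell further, or rose less, in W/F mice, and 8 members did on rescaled TPM, where 19.1% of all genes did. The call of Dgat2 was lost without any of 8 single libraries (W/W chow 2 and 3, W/W vehicle 2, 3 and 4, W/F chow 1, W/F vehicle 2 and 4) and without the filter (adjusted p = 0.0621), and that of Slc25a1 without W/W vehicle replicate 2 or W/F chow replicate 3. Between F/F and W/W mice no response of the 10 differed by the test, where 46.0% of all genes did. Dgat1 was the 1 member with an unadjusted p under 0.05 in limma (0.28, adjusted p = 0.0637). Fasn there gave -1.09 (adjusted p = 0.13), with -1.76 without W/W vehicle replicate 3, where it passed (adjusted p = 0.00186), and -0.68 without W/W vehicle replicate 4.

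In W/F mice on the diet 8 members fell and Dgat1 rose, where 61.0% of all genes passed the test, 52.4% as higher and 8.53% as lower. On rescaled TPM 9 fell and none rose, where 27.0% of all genes fell. Acss2 fell most, by 2.45 (adjusted p = 1.84e-10), and Slc25a1 fell by 0.78 (adjusted p = 1.66e-08), from 267.8 to 326.5 TPM to 160.7 to 185.4 TPM. Acly (-1.48), Gpam (-1.29), Acacb (-0.81), Acaca (-0.70) and Me1 (-0.70) also fell, the last losing its call without any of 5 single libraries (W/F chow replicates 2 and 3 and vehicle replicates 1, 2 and 3), without the filter (adjusted p = 0.0709) and with only these groups fitted (0.106). In F/F mice 6 fell and Dgat1 rose, where 55.8% of all genes passed the test, 46.5% as higher and 9.27% as lower. On rescaled TPM 6 fell and none rose, where 21.3% of all genes fell. Acss2 fell by 1.76, Fasn by 1.20, Gpam by 1.00, Acly by 0.95, Acaca by 0.76 and Slc25a1 by 0.32 on the log2 scale. The call of Fasn was lost without F/F chow replicate 1 (adjusted p = 0.0607). Dgat1 rose by 0.52 in both mutants, but by 0.04 and 0.19 on rescaled TPM, neither passing. All 13 sterol synthesis genes fell in each genotype, with medians of -2.17 in W/W mice, -3.10 in W/F mice and -1.79 in F/F mice. Beside this, no macrophage, stellate cell or cholangiocyte marker passed in W/W mice, where 1 of 5 hepatocyte markers rose and 1 fell. Hepatocyte markers fell in 3 of 5 cases in W/F mice and 4 of 5 in F/F mice (median -1.38), and 4 of 4 cholangiocyte markers rose in each mutant. In each mutant 5 of 6 macrophage markers rose, the other 1 falling in F/F mice, with 5 of 5 stellate cell markers higher in W/F mice and 3 of 5 higher, 1 lower, in F/F mice. Of 3 neutrophil markers 2 rose in W/F mice and all 3 rose in F/F mice, of 4 endothelial markers 2 fell and 3 fell, and the 1 T and B cell marker tested rose in F/F mice alone. Their part in the members' falls was not tested.

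Ratios between isoenzymes within a library do not depend on the scale of that library. They can still depend on its mix of cells, and the part of the markers in them was not tested. The ratios were compared in 30 exact two-sided permutation tests of 4 against 4 mice. The smallest possible p is 0.0286, and 18 tests reached it. Their shared adjusted p of 0.0476 depends on how many tests reached that smallest p. With fewer there, it would be higher for all of them, so these calls, close under 0.05, rest on each other. The mean log2 ratio of Acaca to Acacb was -0.75, -0.37 and -0.88 in W/W mice on chow, vehicle and T0901317. By these means the mitochondrial form was the more abundant per length, but in vehicle replicate 4 Acaca (12.73 TPM) was above Acacb (10.85 TPM). In W/F mice it was 0.62, 0.82 and 0.43, with the cytosolic form in excess. The W/F mice did not overlap the W/W mice in any treatment, with differences of 1.37, 1.19 and 1.31 (exact p = 0.0286, adjusted p = 0.0476, for each). F/F mice had ratios of 0.41 on chow and 0.17 on T0901317, also above W/W mice, by 1.16 and 1.05 (exact p = 0.0286 for each). On vehicle their ratio of -0.31 differed from that of W/W mice by 0.07 (exact p = 0.83) and from that of W/F mice by -1.12 (exact p = 0.0286). The diet moved the ratio by -0.72 in F/F mice, without overlap (exact p = 0.0286). Its changes of 0.38 in W/W mice (exact p = 0.314) and 0.19 in W/F mice (exact p = 0.514) did not pass.

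The log2 ratio of Dgat1 to Dgat2 lay between -4.66 and -3.27 in the group means, Dgat2 being the more abundant per length throughout, from 9.31 times in F/F vehicle to 25.2 times in W/F chow mice by the group medians. T0901317 moved it by 0.40 in W/W mice and by -0.61 in W/F and -0.57 in F/F mice, in each case without overlap (exact p = 0.0286 for each). F/F mice had higher ratios than W/F mice by 0.99 on chow, 0.69 on vehicle and 0.73 on T0901317, again without overlap (exact p = 0.0286 for each). Against W/W mice they were higher by 0.87 on chow and 1.31 on vehicle, and on T0901317 the 0.35 did not pass (exact p = 0.0857). W/F mice differed from W/W mice by 0.62 on vehicle and by -0.38 on T0901317, without overlap (exact p = 0.0286 for each). On chow their -0.13 did not pass (exact p = 0.514). The diet moved the ratio by 0.70 in W/F mice (exact p = 0.0286), whereas -0.05 in W/W mice (exact p = 0.657) and 0.39 in F/F mice (exact p = 0.0571) did not pass.

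**Figure D4:**
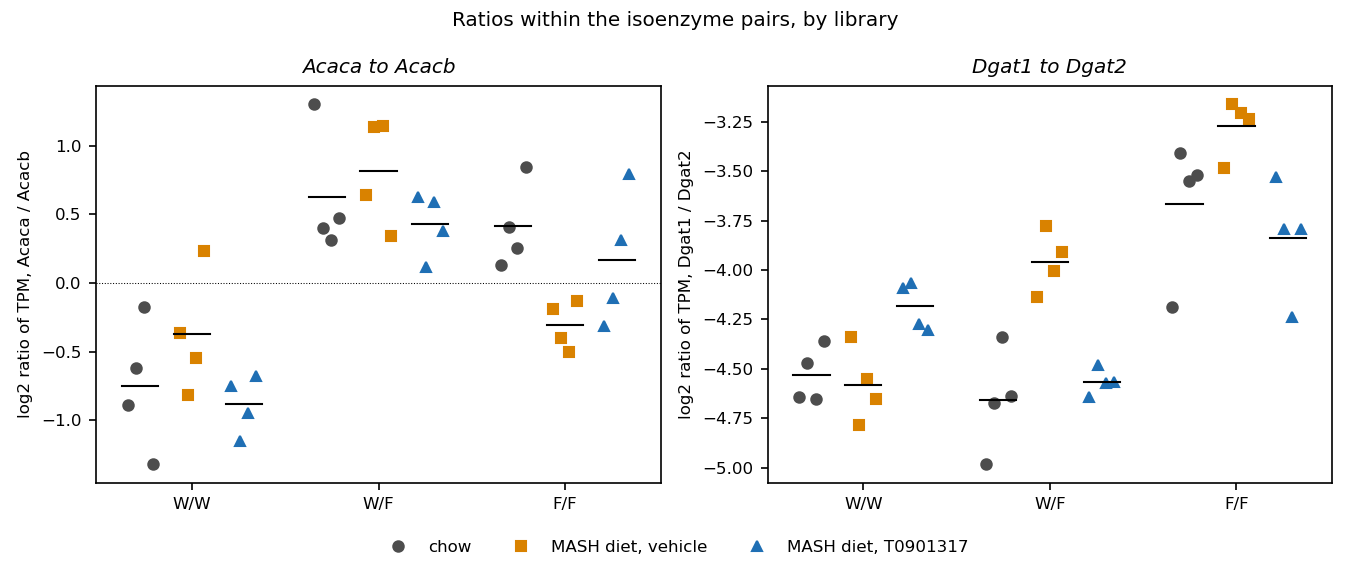
Log2 ratios of Acaca to Acacb and of Dgat1 to Dgat2 (y axes) by genotype and treatment, with 1 point per library and a line at each mean of 4 mice. Each W/F group lies above the W/W group of its treatment for Acaca to Acacb (0.62, 0.82 and 0.43 against -0.75, -0.37 and -0.88).

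Over the 36 libraries, which share the same 9 groups and the same scale, 8 of the members correlated positively with each other, and the final acyltransferases less so. Among those 8, Pearson's r of log2(TPM + 1) ran from 0.554 between Fasn and Gpam upwards. It was 0.945 between Acaca and Fasn, 0.943 between Acaca and Acacb, 0.940 between Acacb and Me1 and 0.928 between Acly and Acss2. Dgat1 had r of -0.512 with Slc25a1 to -0.168 with Me1, and Dgat2 had 0.032 with Gpam to 0.594 with Fasn. Among 9215 other genes with a mean of at least 5 TPM, Acsl5, an acyl-CoA synthetase, was nearest to Acaca (0.947), Acacb (0.941) and Me1 (0.947). Elovl6 was nearest to Fasn (0.940), and Acat2, a cytosolic thiolase, to Acss2 (0.951, level with Abcd3) and Slc25a1 (0.925). The nearest genes to the others were Slc23a1 for Acly (0.912), Pstpip2 for Gpam (0.947), Slc27a1, a fatty acid transporter, for Dgat1 (0.934) and Atg3 for Dgat2 (0.890). These values are a description, and no test was made of them.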

How the data were processed

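PolyA RNA was sequenced from the livers of 36 mice, which were grouped by the genotype, diet and compound in the sample labels. The authors deposited TPM (transcripts per 1000000, so each column sums to 1000000, as checked on the values), and per the submitters' processing notes Trimmomatic 0.36, STAR 2.5.2b and featureCounts of Subread 1.5.2 were used with GRCm38 and mm10. The gene annotation is not given in the sources used here. No column was left without a sample. Depth was worked out from the steps between small TPM values and GENCODE M21 exon lengths (49056 of 49315 genes matched). With the fitted totals, 93.7% to 95.7% of the values under 20 reads lay within 0.1 of a whole read. Because lengths had to be assumed, tests that need counts were not used.

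Values were analysed as log2(TPM + 1) for genes that reached 1 TPM in 4 or more samples. The 9 group means were estimated together by limma 3.58.1 (R 4.3.3) with a variance trend, and 20 contrasts were taken from them. Tests were two-sided, adjusted by Benjamini-Hochberg within each contrast (16638 genes) and called at an adjusted p under 0.05, and every adjusted p in the text comes from this fit unless named otherwise. The fit was tested on simulated data. Rescaled TPM were divided by median-of-ratios factors over 14786 genes (0.693 to 1.478). Ratios of isoenzymes were compared by the exact two-sided permutation test over 70 arrangements with scipy 1.17.1, adjusted over 30 tests. The genes named are the 10 enzymes and carriers, genes of 6 pathway lists and 8 marker lists, and for each member the non-member genes with the most similar profile. The members, lists and comparisons were chosen with earlier results of these data known. The alternatives were a pseudocount of 0.1, a filter at 5 TPM, no filter at all, a block for the replicate number, rescaled TPM, separate fits of the groups in a contrast, and leaving out each library in turn. Sequences come from RefSeq promoter windows of GRCm38.p6.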

Additional observations from a re-analysis of the deposited data

Results flagged for a closer look

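In 90 sets of 4 mice (10 genes in 9 groups), 5 had a mouse set apart by Dixon's test at 95%, where chance gives about 1 in 20. All 5 were in W/F mice. Fasn read 28.82 TPM in vehicle replicate 1 against 11.11 to 13.13 TPM in the other mice, and 94.75 TPM in T0901317 replicate 1 against 53.53 to 59.25 TPM. Me1 read 70.23 TPM in vehicle replicate 4 against 53.03 to 55.73 TPM. Gpam read 88.93 TPM in chow replicate 3 against 64.54 to 68.36 TPM, and 8.38 TPM in T0901317 replicate 1 against 16.25 to 16.92 TPM.

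Responses that differed between genotypes by limma's test of the difference are given in log2 units. For T0901317, W/F minus W/W was -2.09 for Acly, -2.05 for Acaca, -2.27 for Acacb, -1.78 for Me1, -1.96 for Acss2, -0.46 for Slc25a1, -2.81 for Gpam, -0.43 for Dgat1 and 0.56 for Dgat2. F/F minus W/W was -2.31 for Acly, -1.37 for Acaca, -2.25 for Acacb, -1.66 for Me1, -2.31 for Acss2, -0.39 for Slc25a1, -2.59 for Gpam and -0.57 for Dgat1. For the diet, W/F minus W/W was -1.98 for Fasn, -0.35 for Slc25a1 and -0.47 for Dgat2.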

How the results depend on the processing

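All 10 members had at least 176 recovered reads in every library, so the spread between 4 mice and the scale limit these results more than depth. On rescaled TPM the members called were 8 for T0901317 in W/F, 2 on chow for W/F against W/W, 7 for F/F against W/F on T0901317, 8 for the diet response of W/F minus W/W and 1 for that of F/F minus W/W, and the other 14 counts stayed within 1.5 times. For the T0901317 response of F/F minus W/F, 1 member, Acaca, was called with a pseudocount of 0.1, at 5 TPM and with only the groups compared. On rescaled TPM the 1 member called there was Dgat1 instead (-0.46, adjusted p = 0.0119). With only the groups compared, 3 were called for the diet in W/W and 0 on chow for W/F against W/W. The sign turned on rescaled TPM, whose construction removes the shift of all genes, for T0901317 in W/F (Acly 0.37, Slc25a1 0.60, Dgat1 0.35), the diet (Fasn in W/W 0.012, Dgat2 in F/F -0.20), and W/F against W/W on vehicle (Gpam -0.63, Dgat1 -0.42). It also turned for Dgat1 in F/F against W/W (chow -0.068, vehicle -0.25, T0901317 -0.50), and in F/F against W/F for Slc25a1 (vehicle -0.17, T0901317 -0.43), Gpam (T0901317 -0.44) and Dgat1 (T0901317 -0.29). Among responses to T0901317 it turned for W/F minus W/W (Slc25a1 0.21, Dgat1 0.21) and F/F minus W/F (Acacb -0.28, Me1 -0.22, Slc25a1 -0.26, Gpam -0.10). Among diet responses it turned for W/F minus W/W (Acacb -0.35, Gpam -0.067, Dgat1 -0.33) and F/F minus W/W (Acly -0.34, Me1 -0.35, Acss2 -0.30, Slc25a1 -0.36, Dgat1 -0.19).

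Leaving out a library gave 8 to 8 members called for T0901317 in W/W, 3 to 4 in W/F and 2 to 3 in F/F. With all libraries 3 were higher and 2 lower in W/F, and 2 and 2 in F/F, so every omission in the mutants gave a smaller count. The diet in W/W gave 4 to 7, and W/F minus W/W gave 1 to 2 on chow and 6 to 9 on vehicle. F/F against W/F gave 6 to 9 on chow and 2 to 3 on T0901317. The T0901317 response of F/F minus W/F gave 0 to 1, and the diet responses of W/F and F/F minus W/W gave 1 to 4 and 0 to 2. Values whose sign turned when a library was left out are given as ranges: the diet for Fasn in W/W (-0.52 to 0.56) and Me1 in F/F (-0.40 to 0.014); W/F against W/W for Dgat2 on chow (-0.062 to 0.14) and Gpam on vehicle (-0.29 to 0.26); F/F against W/W for Gpam on vehicle (-0.45 to 0.10) and Dgat1 on T0901317 (-0.051 to 0.068). T0901317 in W/F gave -0.009 to 0.22 for Acaca and -0.037 to 0.048 for Slc25a1. F/F against W/F on vehicle gave -0.11 to 0.053 for Acacb, -0.024 to 0.076 for Slc25a1 and -0.37 to 0.088 for Gpam, and on T0901317 -0.23 to 0.20 for Acacb and -0.16 to 0.15 for Gpam. The T0901317 response of F/F minus W/F gave -0.20 to 0.24 for Acacb and -0.025 to 0.44 for Gpam. The diet responses gave, for W/F minus W/W, -0.29 to 0.022 for Acaca and -0.049 to 0.45 for Acacb, and for F/F minus W/W -0.27 to 0.38 for Acly, -0.14 to 0.36 for Me1 and -0.19 to 0.37 for Acss2.

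Replicate numbers gave no pairing over all mice, as 10 of 60 same-numbered pairs of libraries correlated above 0.1. In 19 of 60 cases a library correlated best with its own number, and in none of 15 comparisons were all pairs above 0.1. Replicate 1 gave most of these matches. Over all comparisons, matched or not, its values ran from -0.174 (F/F against W/W on T0901317) to 0.2 (W/F against W/W on chow). The highest value of any pair was 0.297, for replicate 2 in W/F against W/W on T0901317, also a match. Replicate 1 was the deepest library in some groups (35.82 M reads in F/F T0901317) but not in others (20.72 M in W/F chow). What the replicate 1 libraries share was not tested. With the replicate number as a block, all 20 counts stayed within 1.5 times and 2 further values passed the test, Acly in F/F against W/F on chow (adjusted p = 0.0479) and Fasn in the T0901317 response of F/F minus W/W (adjusted p = 0.0408).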
